A study of Homo sapiens with 30 samples.

Results

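The data set described here is the group of strong LARP6 crosslinking peaks that lie inside 3'UTRs. They were selected on their score in the list of full-length LARP6 (FL): a score of at least 10, a centre in the 3'UTR of the canonical transcript of a protein-coding gene on the same strand, and a distance of more than 100 nt from both the stop codon and the 3' end. Of 14334 FL peaks, 920 met the rule (6.42%), and 1929 FL peaks reached the score of 10 anywhere. The 920 peaks lay in 562 genes and held 27784 of the summed FL score of 102788 (27.0%). The FL score chose the peaks, so it is given as a description, and every ratio to FL is affected by that choice.

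iCLIP was done in U-87 MG cells, an established human glioblastoma line, with 18 samples in 6 lines of 3 replicates each. The 5 stable lines carried a lentiviral, doxycycline-inducible, codon-optimised myc-LARP6: FL, ΔNTR (without the disordered N-terminal region), ΔCTR (without the C-terminal region), ΔLa-module (without the folded RNA-binding module) and ΔNTD (without both the N-terminal region and the La-module). The sixth line was parental cells without a variant, and all 6 lines had 60 ng/mL doxycycline for 24 h. Each variant reached these data as 1 pooled peak list after subtraction of parental peaks, and each line had 1 input library of 50 nt single-end reads (SE50) and 1 of 150 nt paired-end reads (PE150). No list carries replicates, so differences could not be set against replicate spread. Intervals are 95% intervals and cover counting error, or for medians the spread over peaks, which are not independent replicates.

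LARP6 belongs to the La-related proteins, which bind RNA through a La motif and an adjoining RNA recognition motif, together called the La-module. It is best known for binding a stem-loop in the 5'UTR of collagen type I mRNAs. 3'UTRs are the part of an mRNA after the stop codon, where many RNA-binding proteins and miRNAs control the stability, localisation and translation of the message. In iCLIP, ultraviolet light crosslinks a protein to the RNA it touches, and reverse transcription stops at the crosslinked base, so a peak marks a cluster of such stops.

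The sequences at some of the highest peaks are given first, because they show how different strong sites were from one another. Each is 30 nt of the GRCh38 transcript sequence (GENCODE) around the peak centre, 5′ to 3′, with the called peak in capitals and the flanking bases in lower case.
ACTB (chr7:5527485-5527514, minus strand): GTTTTTTTAATAGTCATTCCAAATATGAGA
HNRNPH1 (chr5:179614712-179614741, minus strand): gtgatTTATGCTTACTCTAAGTGGaaatca
PGK1 (chrX:78126076-78126105, plus strand): tgcaTATATTTATATTTTGCCTGTTAaaaa
CTTN (chr11:70436270-70436299, plus strand): ctcaCTTTGTAGGAAACTCATCTCCttcct
RANGAP1 (chr22:41246375-41246404, minus strand): tttGGGTTTTAACGTCTTCTGCTGGCccag
TMBIM1 (chr2:218274361-218274390, minus strand): tgcctTCTTTGTAATATTAAGTGccttgag
SEMA7A (chr15:74410002-74410031, minus strand): agctCTATTTTTATGTTAGGCTTATttcat
NAA50 (chr3:113720425-113720454, minus strand): cagaTTGATAACTTTGTAAGATGGgagaca
PTPRN (chr2:219289956-219289985, minus strand): ggacaTGGGTAGCAATTCTACCCAgagcct
IST1 (chr16:71928386-71928415, plus strand): tgCAGGGCACTGTCCCACCGGGATCCAgtt
TMBIM6 (chr12:49764106-49764135, plus strand): AGGCGACCAAACCAGTGAGAGCCCCAATCC
Uridine (T in the sequence) made up 43.3% of the ACTB window, 46.7% of the PGK1 window and 53.3% of the SEMA7A window, but 20.0% of the IST1 and PTPRN windows and 6.67% of the TMBIM6 window. The PTPRN window folded into a predicted hairpin of 9 base pairs with an energy of -12.7 kcal/mol, and all 5 bases at the peak centre were unpaired in it. For ACTB and PGK1 the predicted energies of these windows were -0.800 and -0.700 kcal/mol. High scores thus occurred both in uridine-rich sequence with little predicted pairing and in a short hairpin.

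The scores were spread unevenly. The median FL score of the 920 peaks was 17, with 523 peaks at 10 to 19, 292 at 20 to 49, 79 at 50 to 99 and 26 at 100 or more. The ACTB peak alone held 7.55% of their summed score and the 10 highest peaks 17.4%. Just inside the threshold there were 109 peaks at a score of 10, of which 88 were overlapped by a ΔNTR peak and 90 by a ΔCTR peak, and just outside it 125 peaks at 9, with 80 and 106. The threshold therefore cuts through a continuous range of scores.

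At the top of the order stood ACTB, the cytoplasmic beta-actin, whose 3'UTR peak (chr7:5527485-5527516, minus strand, 248 nt after the stop codon) had an FL score of 2098, a ΔNTR score of 1099, a ΔCTR score of 3293 and a ΔLa-module score of 4, and the ΔNTD list did not hold it. HNRNPH1, a splicing regulator, had a peak at chr5:179614718-179614736 (minus strand) whose FL score was 720, against 245 for ΔNTR and 780 for ΔCTR. PGK1, a glycolytic enzyme, had a peak at chrX:78126080-78126101 (plus strand) with 676, 256 and 625 in the same order, and another just downstream, at chrX:78126110-78126129, with 137, 53 and 127. In all 3 genes ΔNTR was the lowest of the 3 lists that kept the La-module. ACTB, ACTG1 and PGK1 have processed pseudogenes elsewhere in the genome, and how reads that fit several copies were treated was not tested.

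The next scores in FL belonged to KTN1, a kinesin-binding membrane protein of the endoplasmic reticulum (FL 252, ΔNTR 137, ΔCTR 279), to CTTN, an actin-branching factor (228, 109 and 160), and to ACTN4, an actin crosslinker (224, 117 and 241). They were followed by RANGAP1, the GTPase activator of Ran (167, 66 and 81), SSR1, a subunit of the translocon-associated complex (165, 103 and 178), and SCAMP1, a carrier-vesicle membrane protein (159, 69 and 130). YWHAG, a 14-3-3 protein, scored 151, 61 and 192. ABI2, part of the WAVE complex that starts actin branching, had 2 peaks with 145, 34 and 114 and with 133, 57 and 119. Of the 25 highest peaks, ΔNTR had the lower deposited score in 25 against FL and in 25 against ΔCTR. ΔCTR was below FL in 14 of the 25. After scaling to each list's summed score, these counts were 24, 24 and 19.

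**Figure D1:**
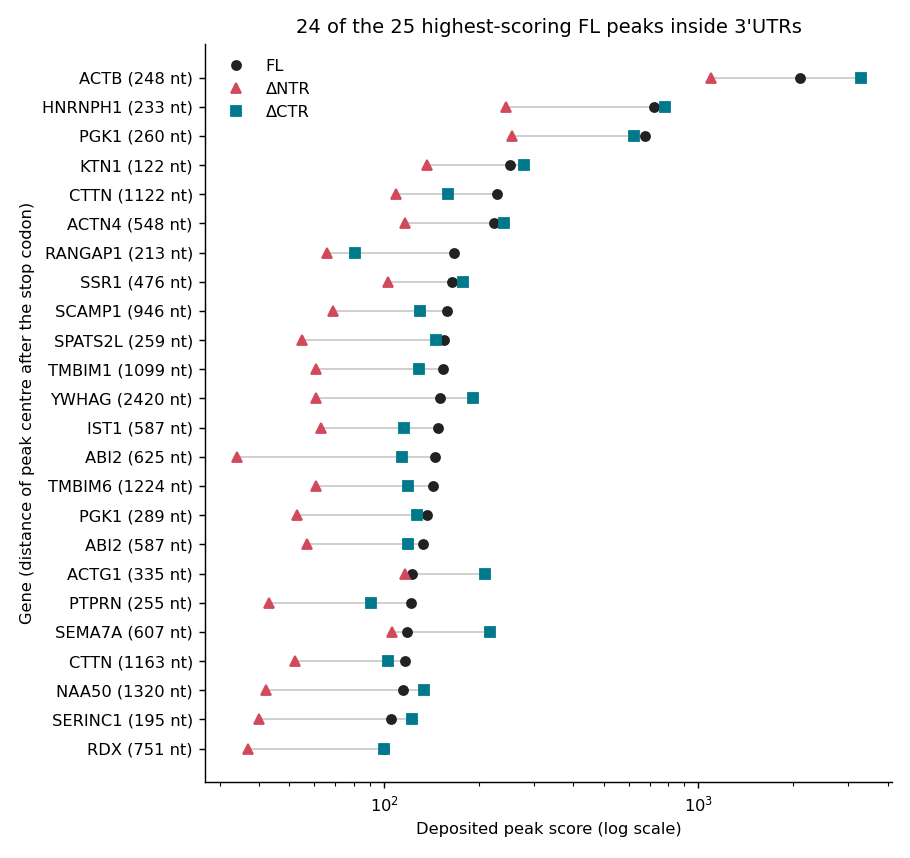
Deposited scores (x axis, log scale) of 24 of the 25 strong 3'UTR peaks with the highest FL score, 1 row per peak, labelled with the gene and the distance from the stop codon to the peak centre. Circles are FL, triangles ΔNTR and squares ΔCTR, each 1 pooled list. The ΔNTR triangle is the leftmost symbol in all 24 rows, from 1099 in ACTB to 34 in an ABI2 peak.

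High scores were not limited to abundant mRNAs. Host genes had a median level of 42.8 CPM per kb of transcript in the FL PE150 library, against 14 for the 9075 protein-coding genes of at least 10 CPM, and 6.16% of those genes had a strong peak inside the 3'UTR. Across the 562 host genes Spearman's rho between the summed score of the gene's strong peaks and CPM per kb was 0.254, in 1 library and across genes that are not independent. Relative to input, the FL score per 1000 PE150 counts of the gene had a median of 2.84 over the 920 peaks and was 11.4 for ACTB, 66.9 for HNRNPH1, 78.0 for SCAMP1 and 63.2 for IST1. ACTG1, the other cytoplasmic actin, was at 0.991. The highest value, chosen after the values were seen, was 554 for PRAF2, which scored 41 in FL at 2.64 CPM.

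The scores in the other 4 lists fell into 2 pairs. A ΔNTR peak overlapped 825 of the 920 peaks (89.7%, 87.5 to 91.5) and a ΔCTR peak 871 (94.7%, 93.0 to 95.9), against 88.2% and 93.2% of all FL peaks with a score of at least 10. These shares were close to that background. By contrast, a ΔLa-module peak overlapped 17 (1.85%, 1.16 to 2.94) and a ΔNTD peak 6 (0.652%, 0.299 to 1.42), against a background of 5.13% and 2.44%. Among strong FL peaks outside the exons of canonical mRNAs, 24.5% of 216 were overlapped by a ΔLa-module peak (19.3 to 30.7), an interval that lay above that of the 3'UTR peaks. For strong peaks in coding sequences the share was 3.71% of 620 (2.48 to 5.50), whose interval overlapped that of the 3'UTR peaks. Both ΔNTR and ΔCTR overlapped 787 peaks, ΔNTR alone 38, ΔCTR alone 84 and neither 11.

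The 22 peaks with a ΔLa-module or ΔNTD peak differed from the whole in their medians, though not each of them did. Their genes had a median of 769 CPM against 251 over all 920 peaks, and their 3'UTRs a median of 932.5 nt against 2564 nt. No ΔLa-module score exceeded 5 and no ΔNTD score exceeded 7. PLEKHJ1, at 23.2 CPM, was one of the exceptions. Besides ACTB, the ΔLa-module list had a score of 3 at peaks in ACTG1, PLEKHJ1, AP3D1, TAGLN2 and P4HB, where FL had 54, 52, 42, 36 and 33. The ΔNTD list had 3 at a peak in the glycolytic enzyme PKM and 7 at one in profilin PFN1, where FL had 81 and 29. Each of these values was within a few counts of the minimum of 3 that a listed peak can have.

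Peaks absent from both ΔNTR and ΔCTR were few and low. The 11 had FL scores of 10 to 21 with a median of 11. The highest was in VIM, the intermediate filament vimentin, at chr10:17237430-17237479 (plus strand), which scored 21 in FL and was listed nowhere else, although VIM had 7039 CPM in the FL input. ILRUN (15), PTPN11 (14), FAF2 (14) and MAU2 (11) followed. At such scores a loss from 2 pooled lists has no replicate check.

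Scores were then compared on a common scale. Each score was divided by the summed score of its list, and a peak that was not listed entered as 0. The median ratio of ΔNTR to FL was 0.536 (0.503 to 0.569, quartiles 0.325 and 0.936) and that of ΔCTR to FL 0.866 (0.811 to 0.911, quartiles 0.551 and 1.22). The peaks were chosen for a high FL score, so neither ratio is a test. The ratio of ΔNTR to ΔCTR used no value of the rule: its median was 0.639 over the 909 peaks listed in either (0.620 to 0.693, quartiles 0.365 and 1.18), and ΔNTR was the lower of the 2 at 632 of 920 peaks. The strong 3'UTR peaks thus carried a smaller part of the ΔNTR list than of the ΔCTR list. Counting each overlapping peak once, that part was 16.3% of the summed ΔNTR score and 25.6% of the summed ΔCTR score.

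At least 2-fold lower scores in ΔNTR than in ΔCTR were found at 317 peaks (34.5%, against 30.3% of all FL peaks of at least 10) and at least 2-fold higher ones at 96 (10.4%, against 12.3%), with unlisted peaks set to a score of 3. Against FL, ΔNTR was at least 2-fold lower at 421 and higher at 43 peaks, where the background was 45.4% and 3.94%. ΔCTR was at least 2-fold lower than FL at 204 and higher at 59, where the background was 27.4% and 5.29%. An overlapping peak that spans several FL peaks enters these counts in full for each, which is taken up below. Strong peaks in coding sequences had a median ratio of ΔNTR to ΔCTR of 0.697 (0.639 to 0.751), whose interval overlapped that of the 3'UTR peaks. Strong peaks in 5'UTRs, 71 in all, had a median of 1.35 (1.05 to 1.99), and there the interval lay above that of the 3'UTR peaks. At these 5'UTR peaks the median of ΔCTR to FL was 0.397 (0.325 to 0.587), against 0.866 (0.811 to 0.911) at 3'UTR peaks. That of ΔNTR to FL was 0.614 (0.491 to 0.783), against 0.536 (0.503 to 0.569), and these intervals overlapped. The 2-fold counts at 3'UTR peaks were near their background. That background includes the 3'UTR peaks themselves, so it cannot show how they differ from other strong peaks. Strong coding-sequence peaks had the same direction of the median, and strong 5'UTR peaks the opposite one.

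**Figure D2:**
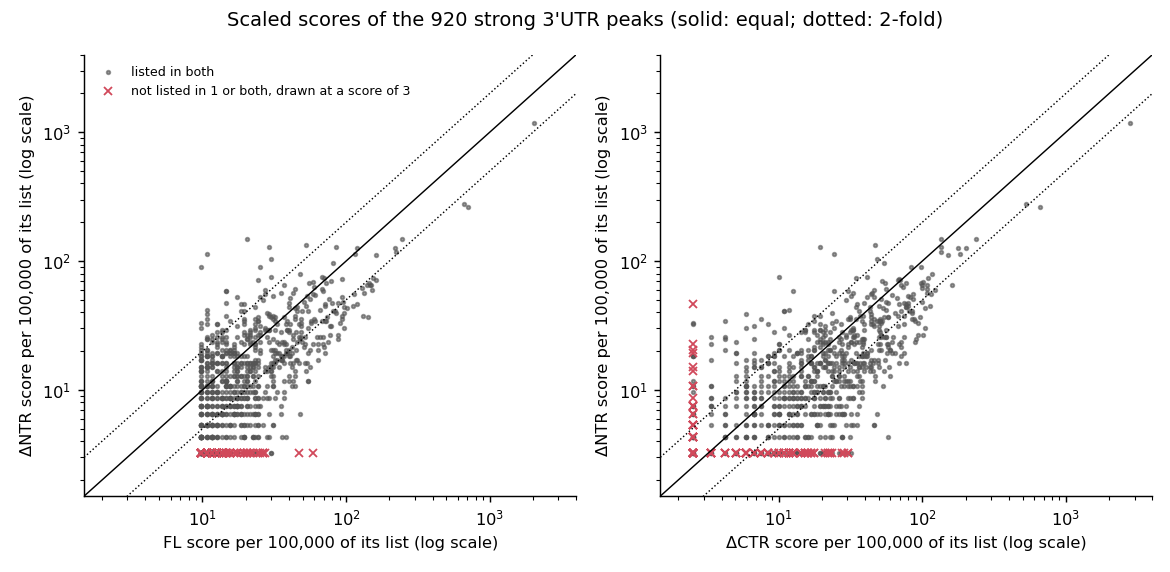
Scaled scores of the 920 strong 3'UTR peaks on log axes, scaled to each list's summed score: ΔNTR against FL on the left and ΔNTR against ΔCTR on the right. Points are peaks listed in both lists, crosses are peaks missing from at least 1 of them and drawn at a score of 3, the solid line marks equal values and dotted lines 2-fold differences. Most points lie below the solid line in both panels, and the median ratios are 0.536 and 0.639.

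The ratio of ΔNTR to ΔCTR was lower at higher FL scores. It was 0.737 (0.669 to 0.813) for the 523 peaks of 10 to 19, 0.585 (0.523 to 0.676) for the 292 of 20 to 49, 0.571 (0.485 to 0.659) for the 79 of 50 to 99 and 0.604 (0.481 to 0.645) for the 26 of 100 or more. The intervals of the last 3 classes overlapped one another. Spearman's rho between the ratio and the FL score was -0.148 across 909 peaks, a weak relation. Among the 26 highest peaks, ΔNTR was at least 2-fold lower than ΔCTR at 8 and at least 2-fold higher at 0.

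A peak of another list can span more than 1 FL peak, and its whole score then counts for each. Of the peaks overlapped by ΔNTR, 127 shared the overlapping peak with another FL peak (15.4%), and for ΔCTR 135 did (15.5%). This bore directly on the extremes. The rule for naming peaks took the 5 highest and 5 lowest ratios among 179 peaks where FL, ΔNTR and ΔCTR together reached 100, and all 5 of the highest shared their ΔNTR peak. Of these, 4 lay in PKM (119 in ΔNTR against 23 in ΔCTR, ratio 6.61, 4.20 to 10.8), SEMA7A (106 against 29, 4.67, 3.07 to 7.31) and ACTG1 (124 against 56 and 96 against 57). When 50% of both peaks had to be shared, no ΔNTR peak remained at the SEMA7A site, so the direction there depends on the rule that 1 shared nt is enough. Under the same requirement no ratio could be given at the PKM and ACTG1 peaks, because no ΔCTR peak remained there. The SEMA7A value of 106 was also the ΔNTR score of that gene's highest FL peak, where ΔCTR had 218. Over the 716 peaks that shared no peak the median ratio of ΔNTR to ΔCTR was 0.639 (0.573 to 0.670). At these 716, ΔNTR was at least 2-fold higher than ΔCTR at 58 (8.1%) and lower at 247 (34.5%). Against FL, ΔNTR was higher at 12 (1.68%) and lower at 361 (50.4%), and ΔCTR at 25 (3.49%) and 180 (25.1%). Calls of higher scores were thus less frequent without shared peaks.

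The 5 lowest ratios were mostly at unshared peaks. ACTL6A, an actin-related subunit of chromatin-remodelling complexes, had 48 for FL, 15 for ΔNTR and 91 for ΔCTR (ratio 0.211, 0.113 to 0.366). In LAMC1, a laminin chain of the basement membrane, the values were 21, 12 and 71 (0.216, 0.107 to 0.401), and the ΔCTR peak there was shared. SERINC3, a membrane protein, had 44, 15 and 82 (0.234), LRRC8A, a subunit of volume-regulated anion channels, had 56, 11 and 56 (0.251), and CAST, the calpain inhibitor calpastatin, had 37, 17 and 85 (0.255). The sequences at 4 of these peaks are shown for their base content.
ACTL6A (chr3:179588281-179588310, plus strand): tctgTTTAGTGTATTAATTACCAGTGgatt
LAMC1 (chr1:183144298-183144327, plus strand): TGTGTTTTGTTTATCATGATTATAGAATAa
SERINC3 (chr20:44499691-44499720, minus strand): tttTAATTTACTTTTTTTACACTGTAgcat
CAST (chr5:96774464-96774493, plus strand): aaATAATTGCAAATATCCACTTAGAGGCaa
Uridine made up 56.7% of the SERINC3 window, 50.0% of the LAMC1 window, 46.7% of the ACTL6A window and 23.3% of the CAST window.

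Base content and 3'UTR length went with the ratio across all 920 peaks. These measures were looked at after earlier results were known. In the lowest class of cytidine share (0 to 16.13% of the 31 nt at the centre, 388 peaks) the median ratio of ΔNTR to ΔCTR was 0.533 (0.483 to 0.592), in the middle class (279) 0.654 (0.575 to 0.712), and in the highest class (29.03 to 58.06%, 253 peaks) 0.876 (0.786 to 0.983). In 3'UTRs of 215 to 1786 nt it was 0.835 (0.742 to 0.912), in those of 1788 to 3247 nt 0.672 (0.620 to 0.745), and in those of 3270 to 17872 nt 0.500 (0.426 to 0.547). The lowest and highest classes had intervals that did not overlap for either measure. Spearman's rho was 0.201 with cytidine share and -0.220 with 3'UTR length across 909 peaks. These points share 2 pooled lists, and several come from the same gene.

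The 2 measures were also crossed. In the shortest 3'UTRs the median ratio was 0.706 (0.559 to 0.871) for cytidine-poor and 0.965 (0.786 to 1.23) for cytidine-rich peaks. In the middle class it was 0.554 (0.465 to 0.657) and 0.897 (0.737 to 1.28), and in the longest 0.455 (0.397 to 0.532) and 0.660 (0.395 to 0.958). The 2 intervals overlapped in the shortest and the longest class but not in the middle one. Among the 142 cytidine-poor peaks in the longest 3'UTRs, ΔNTR was at least 2-fold lower than ΔCTR at 71 and at least 2-fold higher at 2. The median ratio of ΔCTR to FL was 0.866 in each class of 3'UTR length. That of ΔNTR to FL was 0.663, 0.577 and 0.427. An equal deposited score in ΔCTR and FL gives 0.866, so the same median does not show that ΔCTR stayed level. Ratios of summed scaled scores were 1.05, 0.965 and 0.914 for ΔCTR to FL and 0.751, 0.671 and 0.486 for ΔNTR to FL. Over unshared peaks the medians were 0.748, 0.787 and 0.822 for ΔCTR to FL and 0.553, 0.553 and 0.419 for ΔNTR to FL. From low to high cytidine share both medians moved: ΔCTR to FL was 0.933, 0.874 and 0.757, and ΔNTR to FL 0.484, 0.553 and 0.632. Leaving out peaks that shared an overlapping peak gave 0.816, 0.639 and 0.495 for ΔNTR to ΔCTR from short to long. The 5175 weak FL peaks inside 3'UTRs, with scores of 9 or less, are other regions measured in the same lists. Their summed scaled scores had a ratio of ΔNTR to ΔCTR of 1.02, 0.964 and 0.722 in the same length classes, and of 0.831, 0.829 and 1.1 in the same cytidine classes. By this measure, which is not the median, the strong peaks had 0.712, 0.695 and 0.532 by length and 0.555, 0.722 and 0.867 by cytidine share.

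**Figure D3:**
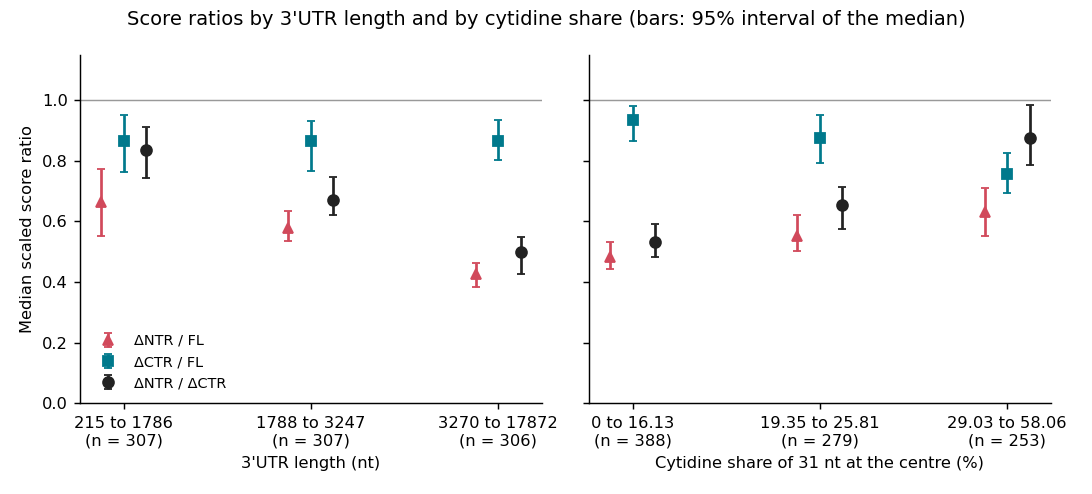
Median scaled score ratios (y axis) of the strong 3'UTR peaks in 3 classes of 3'UTR length (left) and of cytidine share in the 31 nt at the peak centre (right), with the number of peaks under each class. Triangles are ΔNTR to FL, squares ΔCTR to FL and circles ΔNTR to ΔCTR, and bars are 95% intervals of the median over peaks. The ΔNTR to ΔCTR circles go from 0.835 to 0.500 with 3'UTR length and from 0.533 to 0.876 with cytidine share.

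By function of the host gene, 12 lists of genes were looked at. The actin cytoskeleton had 37 strong peaks in 21 of its 72 genes of at least 10 CPM, with a median ratio of ΔNTR to ΔCTR of 0.908, and 6 peaks were at least 2-fold lower and 4 at least 2-fold higher. Besides the peaks named above, RDX, which links actin to the membrane, had 100 for FL, 37 for ΔNTR and 100 for ΔCTR. Vesicle traffic had 40 peaks in 22 of 82 genes, with a median ratio of 0.874 and 9 peaks in each direction. In it, the small GTPase RAB10 scored 71, 24 and 88, and CAV1, the coat protein of caveolae, 60, 64 and 121. Over all 909 peaks the median was 0.639, as given above.

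Extracellular matrix genes had 40 peaks in 17 of 50 genes and a median ratio of ΔNTR to ΔCTR of 1.24. The list of glial and mesenchymal markers of the line was at 1.39, with 31 peaks in 5 of 6 genes, 7 of them at least 2-fold higher and 5 at least 2-fold lower. Of the 40 matrix peaks, 11 were at least 2-fold higher and 7 at least 2-fold lower in ΔNTR. MMP14, a membrane-bound matrix protease, had 51 for FL, 38 for ΔNTR and 85 for ΔCTR, and P4HA1, a subunit of the collagen prolyl hydroxylase, had 50, 33 and 41. All 40 peaks were listed in both ΔNTR and ΔCTR.

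Splicing factors and hnRNPs had 12 peaks in 9 of 63 genes, with a median ratio of 0.534. None was at least 2-fold higher in ΔNTR and 6 were at least 2-fold lower. CELF1, a regulator of splicing and mRNA decay, scored 46, 16 and 34 at its higher peak. Tubulins and microtubule proteins had 9 peaks in 4 of 29 genes (median 0.639), with 36, 17 and 34 at the highest one, in MAP1B. Glycolysis had 12 peaks in 4 of 19 genes (median 1.22): PKM scored 87, 119 and 160 at its highest peak. Both overlapping peaks there were shared with another FL peak. The value of 119 was also the ΔNTR score at the PKM peak with the ratio of 6.61.

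Endoplasmic reticulum chaperones and associated proteins had 24 peaks in 9 of 29 genes (median 0.835), among them CALU, a calcium-binding protein, with 61, 58 and 87, and SSR3 with 41, 44 and 95. Signalling GTPases and 14-3-3 proteins had 24 peaks in 9 of 35 genes (median 1.01), and GNB1, a G protein subunit, scored 71, 54 and 36 at one and 62, 51 and 73 at another. Cadherin, catenin and integrin adhesion had 25 peaks in 6 of 34 genes (median 0.871), with CTNNB1, which is beta-catenin, at 96, 67 and 82. Translation factors had 12 peaks in 8 of 43 genes (median 1.18), including EIF5 with 50, 24 and 35 and LARP1, a relative of LARP6, with 41, 11 and 36. Ubiquitin and proteasome genes had 6 peaks in 5 of 61 genes (median 0.742), all with FL scores of at most 13, led by UBE2Z with 13, 3 and 4. The lists differ in length and expression and were not tested against one another.

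Several peaks in the same 3'UTR were common. Of the 562 genes, 368 had 1 strong peak and 194 had 2 or more. Between neighbouring peaks of a gene the median gap was 52 nt, and 177 of 358 gaps were under 50 nt. CD44, a hyaluronan receptor, had the most, with 18 strong peaks between 334 and 2926 nt after the stop codon of its 3069 nt 3'UTR. Their FL scores ran from 11 to 70 with a sum of 474, and the sums were 419 for ΔNTR and 684 for ΔCTR. The highest, at chr11:35230647-35230689 (plus strand), had 70, 56 and 129. At 3 of the 18 ΔNTR was at least 2-fold lower than ΔCTR and at 3 at least 2-fold higher. The higher ones had low scores, 16 against 4, 23 against 8 and 17 against 10 in ΔNTR and ΔCTR. In the last pair of these, both overlapping peaks were shared with another FL peak. The lower ones had 15 against 46, 21 against 58 and 3 against 16, the last with a shared ΔCTR peak. Calls in this mRNA thus went both ways, but the higher ones rest on low and partly shared scores.

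CCND1, which encodes cyclin D1, had 10 strong peaks that summed to 259, 253 and 437. Its highest peaks, close to each other, scored 99, 28 and 124 at chr11:69653034-69653079 and 49, 74 and 139 at chr11:69652957-69652990 (plus strand). FL was higher at the first of these neighbours and ΔNTR at the second. CAVIN1, a caveolar coat protein, also had 10, with sums of 188, 193 and 193 and a highest FL score of 32. In PAPOLA, a poly(A) polymerase, 6 peaks summed to 153, 56 and 251, and ΔNTR was at least 2-fold lower than ΔCTR at 4 of them.

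**Figure D4:**
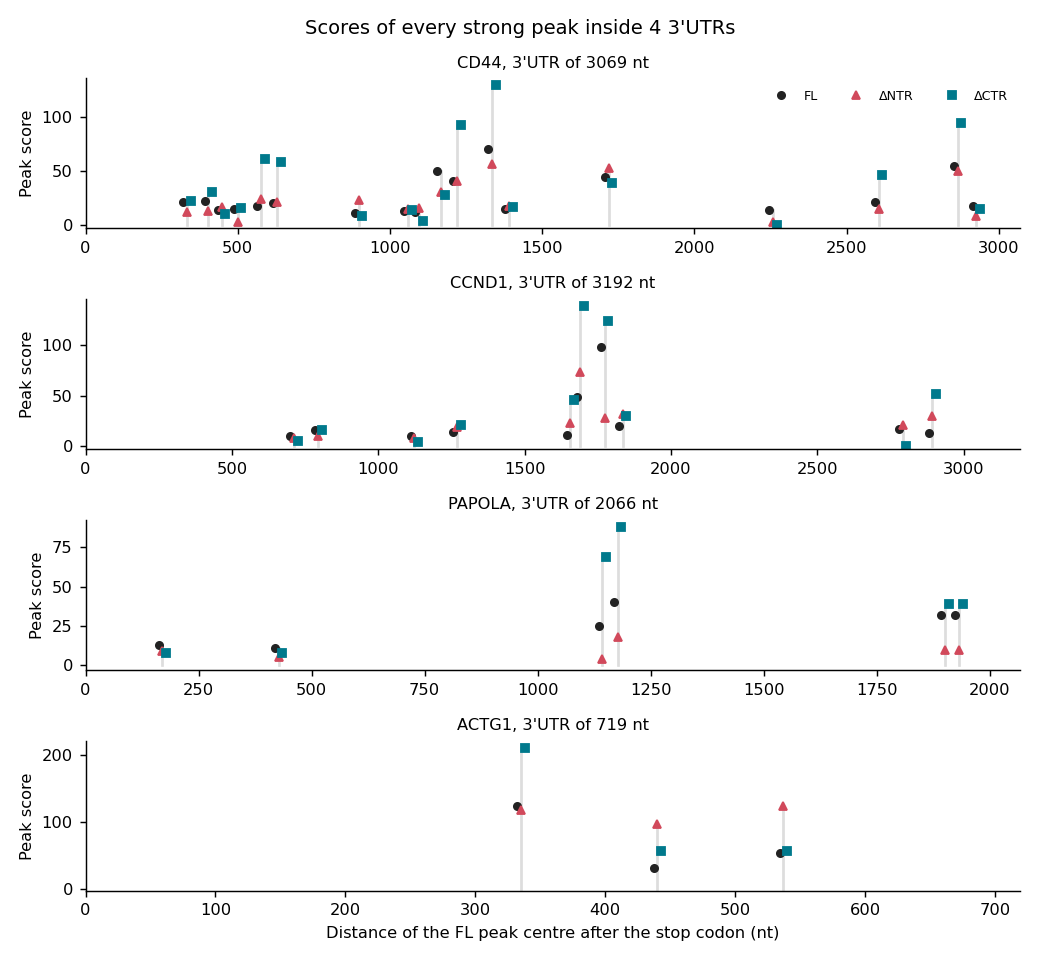
Scores (y axis) of every strong peak inside the 3'UTRs of CD44, CCND1, PAPOLA and ACTG1 by the distance of the FL peak centre after the stop codon (x axis, nt). Circles are FL, triangles ΔNTR and squares ΔCTR, set slightly side by side, and a score of 0 means that the peak is not listed. In CD44 the ΔCTR squares reach 129 near 1335 nt, while in PAPOLA the ΔNTR triangles stay at 18 or below and the ΔCTR squares reach 88.

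Along the 3'UTR, the centres lay a median of 803 nt after the stop codon (quartiles 389 and 1640 nt) in 3'UTRs with a median length of 2564 nt. Of 3 equal stretches of the 3'UTR, the first held 356 peaks, the middle one 360 and the last 204. All 920 centres were in the last exon of the transcript. Host genes had 3'UTRs with a median of 2435 nt, against 1528 nt over protein-coding genes of at least 10 CPM, and a longer 3'UTR offers more positions to the rule.

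Around the strong 3'UTR peaks, within 100 nt, additional peaks without an FL counterpart were more frequent for ΔNTR. There were 399 of them in ΔNTR, or 43.4 per 100 strong peaks (39.2 to 47.8), and 282 in ΔCTR, or 30.7 per 100 (27.2 to 34.4). Their ratio was 1.41 (1.21 to 1.65), and the whole ΔNTR list was 1.08 times as long as the ΔCTR list. The list lengths also count peaks that overlap FL peaks, so they are not a matched background. Whether the excess is particular to strong 3'UTR peaks was not tested. They lay on both sides, 208 upstream and 191 downstream in ΔNTR and 138 and 144 in ΔCTR. Most were low: the median score was 4 in ΔNTR and 3 in ΔCTR, and with scores above 3 alone the counts were 216 and 139, a ratio of 1.55 (1.25 to 1.94). They were found at 316 strong peaks in ΔNTR and at 242 in ΔCTR.

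The called peaks themselves were not wider in ΔNTR at sites with 1 overlapping peak. Called widths were not matched for score and do not measure crosslink density around a site. Where 1 peak of the other list overlapped, the ΔNTR peak was wider than the FL peak at 283 of 687 sites (41.2%, 37.6 to 44.9) and narrower at 374, with a median difference of -2 nt (-2 to -1). The ΔCTR peak was wider at 342 of 739 (46.3%, 42.7 to 49.9) and narrower at 358, with a median difference of 0 nt (-1 to 0). The FL peaks had a median width of 38 nt and a range of 14 to 140 nt. At 138 strong peaks 2 or more ΔNTR peaks overlapped, and at 132 2 or more ΔCTR peaks.

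What the strong sites share in sequence was small on average. In 31 nt at the centre, uridine made up 31.9% against 30.2% in the windows 100 nt to either side in the same 3'UTR, and adenosine 24.0% against 25.7%. Cytidine (21.5 and 21.4%) and guanosine (22.6 and 22.7%) were near equal. Uridine was above its own flanks at 488 of 919 peaks (53.1%, 49.9 to 56.3). Weak 3'UTR peaks had 31.8% uridine. Strong peaks in coding sequences had 24.2%, in sequence of another base content.

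Of the fixed patterns, searched in the 31 nt on the transcript strand, a run of 5 or more pyrimidines occurred at 529 peaks (57.5%, 54.3 to 60.7), in 55.9% of flank windows and in 54.1% of all 31 nt tiles of the host 3'UTRs. TTTTT, a binding pattern of several RNA-binding proteins, was at 10.0% (8.22 to 12.1) against 9.61% and 10.9%. ATTTA, the core of AU-rich elements, was at 6.63% (5.20 to 8.43) against 4.31% of flank windows and 5.64% of tiles. AATAAA, the poly(A) signal, was at 9 peaks (0.978%, 0.516 to 1.85) against 2.15% and 2.34%, and the rule kept peaks away from the 3' end. TGTANATA, the Pumilio site, was at 2 peaks (0.217%) against 0.552% and 0.566%. CG (28.0% against 28.6% and 25.8%), CCCC (10.5% against 11% and 8.27%) and GGACT (2.93% against 2.04% and 2.14%) were near their surroundings. Among 313 5-mers seen at 30 or more peaks, the first by ratio to the flanks, AAATC, stood at 2.16 but at rank 256 with flanks 200 nt away, so no 5-mer is singled out.

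Predicted folding was only slightly stronger at the peaks than beside them. The median energy of 61 nt was -10.7 kcal/mol against -10.1 in the flanks, with a median difference of -0.600, and it was lower than in the flanks at 504 of 919 peaks (54.8%, 51.6 to 58.0). Weak 3'UTR peaks had a median of -10.1. Peaks were then split by width, a step added after seeing the data.

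The 164 strong peaks of 25 nt or less differed on average between the centre and the bases downstream. Uridine reached 42.1% in the 3 central bases and guanosine 13.4%, while 9 nt downstream uridine was 24.0% and guanosine 31.3%. Predicted unpaired probability, over 158 of them with 150 nt of transcript on either side, was 55.1% in the 5 central bases, 37.4% at 6 to 15 nt downstream and 45.3% at 40 to 60 nt to either side. The centre was more open than those surroundings at 106 of 158 (67.1%, 59.4 to 73.9), and the downstream stretch more paired at 109 (69.0%, 61.4 to 75.7). The open centre and the paired downstream stretch were counted separately, and how often 1 peak had both was not counted. Wide peaks of over 45 nt had 44.6% at the centre, 46.5% downstream and 45.7% around.

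Narrow weak 3'UTR peaks showed the same kind of centre, with 54.9% unpaired over 3047 peaks, and 44.1% unpaired in the downstream stretch against 46.5% around them. It was below its surroundings at 1770 of these (58.1%, 56.3 to 59.8), and that interval lay below the interval of the strong narrow peaks. Their guanosine share 9 nt downstream was 26.2%. The open centre was therefore not particular to high scores. In the narrow class the median ratio of ΔNTR to ΔCTR was 0.564 (0.487 to 0.639), against 0.766 (0.697 to 0.898) for peaks over 45 nt.

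**Figure D5:**
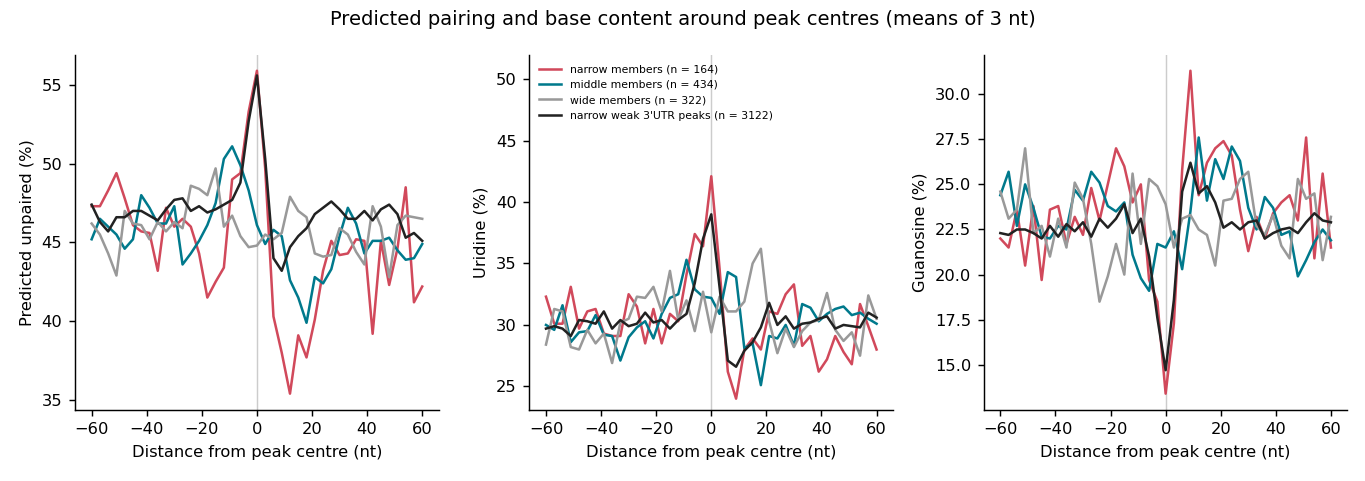
Predicted unpaired probability, uridine share and guanosine share (y axes, %, means of 3 nt) by distance from the peak centre (x axis, nt, positive downstream) for strong 3'UTR peaks of 25 nt or less, 26 to 45 nt and over 45 nt, and for weak 3'UTR peaks of 25 nt or less. Lines are means over peaks without error bars. Narrow strong and narrow weak peaks both have a central maximum of unpaired probability and of uridine, at 42.1% and 39.0% uridine, and the dip in unpaired probability downstream is deeper in the strong ones.

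The input libraries show whether host mRNAs themselves differed between lines. All 562 host genes were found in the input. After dividing the score ratio by the ratio of TMM-scaled PE150 CPM in the same 2 lines, the medians were 0.538 for ΔNTR to FL, 0.848 for ΔCTR to FL and 0.637 (0.590 to 0.684) for ΔNTR to ΔCTR. They were within the intervals of the values without input. With SE50, which are mostly small RNA and gave 10 counts in both lines for only 467 peaks, the last ratio was 0.854 (0.787 to 0.952).

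Host genes at least 2-fold changed against parental cells in PE150, on log2(CPM + 1), numbered 0 in FL (background 0.0555% of genes), 11 in ΔNTR (1.96% of 562, background 0.744%), 1 in ΔCTR (background 0.0763%), 7 in ΔLa-module (background 0.398%) and 6 in ΔNTD (background 0.326%), with 1 library each and no test. All were higher than in parental cells. In ΔNTR they included SLC16A3, a lactate transporter, at a log2 fold change of 1.84 (159 against 43.8 CPM), BNIP3, a mitophagy receptor, at 1.66 (499 against 157 CPM), LOX, which crosslinks collagen, at 1.44 (538 against 197 CPM) and PDK1, a mitochondrial kinase, at 1.29 (216 against 87.9 CPM). The same 4 genes were also past 2-fold in ΔLa-module and ΔNTD, with log2 fold changes of 1.47 and 1.12 for SLC16A3, 1.4 and 1.38 for BNIP3, 1.1 and 1.09 for LOX and 1.17 and 1.09 for PDK1. SLC16A3 was the gene called in ΔCTR, at 1.01. SLC16A3, BNIP3 and PDK1 are known as genes that respond to low oxygen. The BNIP3 and PDK1 peaks were not among the higher ones in ΔNTR: the BNIP3 peak had 16 for FL, 5 for ΔNTR and 13 for ΔCTR, and the PDK1 peak 16, 5 and 7.

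The glioblastoma line was checked against glial and mesenchymal markers in the input. VIM, FN1 and CD44 were between 2083 and 8004 CPM in all 6 PE150 libraries and NES between 52 and 57.7 CPM. The glial markers GFAP and S100B were at no more than 0.240 CPM, SOX2 was at no more than 0.0356 CPM, and OLIG2 was between 1.46 and 2.54 CPM. Of the 10 markers, 5 genes held 31 strong 3'UTR peaks.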

How the data were processed

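The iCLIP peak lists and input counts of U-87 MG lines were used as deposited. The authors trimmed reads, removed rRNA and tRNA with Bowtie 2, aligned with STAR (GRCh38.p13), removed duplicates with UMI-tools, called peaks per replicate with Clippy, merged replicates with summed scores, and subtracted parental peaks with bedtools 2.30.0. The deposited score is that sum, at least 3 in every list and not scaled to depth, so the iCLIP depth is unknown here. Input reads were trimmed with Trim Galore 0.6.10 and counted per gene with STAR 2.7.10b. These deposited counts were taken on the strand with the higher total and scaled by TMM (edgeR 4.0.16). PE150 libraries held 25027075 to 28692476 counts in genes and SE50 libraries 6181270 to 10307756.

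Centres were placed on canonical transcripts of GENCODE release 44. Overlap meant 1 shared nt on the same strand, and scores of several overlapping peaks were summed. Folding used ViennaRNA 2.7.2, for unpaired probability in windows of 120 nt with pairs of at most 90 nt. Intervals are Wilson (shares), exact Poisson or binomial (counts, ratios) and order-statistic (medians). No test was run, since lists are pooled and each line had 1 input library per protocol. Genes named were the 25 highest FL scores, the 5 highest and 5 lowest ratios of ΔNTR to ΔCTR, up to 10 peaks with a ΔLa-module or ΔNTD peak, up to 3 per gene list, up to 5 absent from ΔNTR and ΔCTR, and the genes with most peaks. PAPOLA as a gene with many peaks, PRAF2 and the host genes changed in the input were named after their values were seen. The members and lists were chosen with earlier results of these data known. Some genes that these rules name are not reported here. Scripts were tested on simulated data.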

Additional observations from a re-analysis of the deposited data

How the results depend on the processing

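No median over the peaks reversed under any alternative run, but ratios of ΔNTR to ΔCTR at single peaks did. Requiring 50% of both peaks to be shared left no ΔNTR peak, a ratio of 0, at peaks in GNB1, PFN1, CD44, SEMA7A and CAVIN1, among others, where ΔNTR had been higher, and taking the highest overlapping peak alone gave 0.912 in PFN1. A further 22 single-peak values had no ΔCTR score to divide by and could not be given, 5 of them at peaks where the whole interval of the ratio had been below 1. The same 50% requirement gave overlaps of 65.5% (ΔNTR), 72.6% (ΔCTR), 0.326% (ΔLa-module) and 0.109% (ΔNTD), median ratios of 0.369 (ΔNTR to FL), 0.661 (ΔCTR to FL) and 0.557 (ΔNTR to ΔCTR), 12 peaks at least 2-fold higher in ΔNTR than FL, 26 higher and 366 lower in ΔCTR than FL, and wider peaks at 35.5% (ΔNTR) and 41% (ΔCTR). An FL score of at least 20 left 397 peaks, with overlaps of 96% (ΔNTR) and 99.5% (ΔCTR), ratios of 0.925 (ΔCTR to FL) and 0.583 (ΔNTR to ΔCTR), and 12 higher and 188 lower (ΔNTR against FL), 12 and 50 (ΔCTR against FL) and 18 and 163 (ΔNTR against ΔCTR). These counts are over fewer peaks. Deposited scores gave 0.484, 1 and 0.5 for the 3 ratios, with 94 peaks at least 2-fold higher in ΔCTR than FL, and scaling to the rest of each list gave 0.474 (ΔNTR to FL) and 0.568 (ΔNTR to ΔCTR). Additional peaks per 100 strong peaks were 24.5 and 18.2 within 50 nt, 69.9 and 49.3 within 200 nt, and 23.5 and 15.1 with scores above 3 (ΔNTR and ΔCTR). SE50 input gave 0.645, 0.796 and 0.854. With a pseudocount of 5, 0 host genes were called in ΔCTR. Where no construction is named, the cause was not tested. The alternatives on shared peaks and on folding windows were chosen after seeing the data. No paired analysis was possible because each iCLIP list pools its replicates and each line has a single input library per protocol, so no replicate could be left out either.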
